A study of Mus musculus with 12 samples.

Results

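The genes described are 8 members of the TALE homeobox class that encode cofactors of Hox proteins: Pbx2, Pbx3, Pbx4, Meis1, Meis2, Meis3, Pknox1 and Pknox2. They were chosen by name among the 41388 genes of the deposited tables, and all 8 were counted in all 12 libraries. Transcripts were measured in fluorescence-sorted cells of dorsal root ganglia, where the cell bodies of spinal sensory neurons lie, from C57BL/6 mice aged 3 months. In 6 libraries the ganglia came from spinal levels L6 and S1 (L6S1: 3 female pools, A to C, and 3 male pools, A to C), and in 6 from levels L3, L4 and L5 (L345: 3 female pools, B to D, and 3 male pools, A to C). Per the labels' protocols, a library began with 12 to 32 ganglia from 2 to 8 pooled mice, took 10 ng of RNA and was amplified for 12 PCR cycles.

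All groups shared the same genetic marking. The mice carried a knocked-in floxed Ret allele, RetFloxedEGFP, in the heterozygous state, which Cre excises in the sorted cells of every group, and a Cre recombinase at the NaV1.8 sodium channel gene (Scn10a<tm2(cre)Jnw>). EGFP appears only where Cre has excised the floxed segment in a cell with an active Ret locus, so the sort aims at NaV1.8-lineage neurons that use Ret. The genotype field lists both alleles for 8 libraries, only RetFloxedEGFP for male L6S1 C and female L345 D, and only the Scn10a Cre allele for female L6S1 B and C, although the source names of all 12 give both. Those 4 libraries also carry another form of title than the other 8. The number of mice behind male L345 C is 5 or 3, depending on the label field. No source used here says whether an animal gave ganglia to pools of both levels, and p-values measure the spread between pools.

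TALE proteins carry a DNA-binding homeodomain with a short extension of the loop between its first and second helices. In vertebrates Pbx proteins bind DNA together with Hox proteins and sharpen which sites a Hox protein occupies, while Meis and Pknox (Prep) proteins bind Pbx, take part in trimeric complexes and influence whether Pbx is nuclear and stable. Hox genes themselves mark position along the body axis, and in the spinal cord and its ganglia neighbouring levels use different Hox genes.

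The homeobox is the part of these transcripts that defines the class, and the stretch shown for each gene runs 90 bases from the codons of the loop extension to the third helix, which contacts DNA. The capitals mark the 9 bases of the 3 extra codons. Sequences are on the sense strand and were read from GENCODE M21 transcripts, which belong to the same mouse assembly.
Pbx2: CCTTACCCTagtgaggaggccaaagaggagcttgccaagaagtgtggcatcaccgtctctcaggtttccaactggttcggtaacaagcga
Pbx3: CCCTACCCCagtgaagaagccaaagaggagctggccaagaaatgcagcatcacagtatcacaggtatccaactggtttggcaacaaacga
Pbx4: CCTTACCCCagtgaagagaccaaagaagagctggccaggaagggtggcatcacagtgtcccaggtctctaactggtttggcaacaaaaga
Meis1: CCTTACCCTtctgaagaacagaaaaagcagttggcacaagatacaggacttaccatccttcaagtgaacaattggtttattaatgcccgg
Meis2: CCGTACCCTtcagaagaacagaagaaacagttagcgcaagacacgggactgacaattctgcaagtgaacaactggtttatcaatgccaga
Meis3: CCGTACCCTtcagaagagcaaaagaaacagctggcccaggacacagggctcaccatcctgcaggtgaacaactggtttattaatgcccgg
Pknox1: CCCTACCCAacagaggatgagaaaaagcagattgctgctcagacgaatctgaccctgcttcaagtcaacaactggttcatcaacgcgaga
Pknox2: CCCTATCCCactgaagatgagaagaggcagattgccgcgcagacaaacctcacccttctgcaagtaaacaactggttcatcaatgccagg
Over these 90 bases the Pbx genes shared 82.2 to 84.4% of positions with one another, the Meis genes 82.2 to 83.3% and the pair of Pknox genes 81.1%. Between families 50 to 71.1% of positions were the same. Each family is thus closer to itself than to the others within the homeobox.

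The libraries held 16176436 to 26694404 counts, and 3 counts, the floor for a gene not detected, equal 0.112 to 0.185 CPM by library, which covers counting error only. CPM are counts scaled to the library total, here with an effective total from the trimmed mean of M-values (TMM). The 6 sensory neuron markers (Uchl1, Prph, Scn10a, Scn11a, Isl1 and Pou4f1) were above 0 in every library. Their summed level was 4085 to 5205 CPM in L6S1 and 4597 to 5415 CPM in L345 libraries. All marker levels here are in CPM of each library's own total. Of these 6 markers, 0 were called between levels. Scn10a and Scn11a had log2 fold changes of L6S1 over L345 of -0.42 (edgeR adjusted p = 0.101) and -0.45 (edgeR adjusted p = 0.0935). In TMM-scaled CPM both were below the L345 mean of their sex in 6 of 6 L6S1 libraries. The other neuron markers ran from -0.12 (Pou4f1) to 0.11 (Uchl1). Markers of other cells were present as well. The summed level of 5 fibroblast markers was 122 to 311 CPM in L6S1 and 68.1 to 93.1 CPM in L345 libraries, with 1 of 5 (Dcn) called higher at L6S1. Dcn made up most of that sum in each library, and no other fibroblast marker was called. The summed level of 5 immune markers was 6.58 to 144 CPM in L6S1 and 2.41 to 4.51 CPM in L345 libraries. Of 3 tested, 2 were called higher (C1qb and Cd74), and Aif1 was not (log2 fold change 0.14, edgeR adjusted p = 0.705). Cd74 was at 5.40 in females (edgeR adjusted p = 0.0294) and 0.31 in males (edgeR adjusted p = 0.928). C1qa, not tested, was at 0 in the L345 libraries and had a median of 0 CPM in the L6S1 libraries. The immune value of 144 CPM is that of female L6S1 C alone, 132 CPM of it from Cd74, and the other 5 L6S1 libraries had 6.58 to 13.8 CPM. Of 5 satellite glia and 5 Schwann cell markers, 0 were called between levels. Their part in the results below was not tested. Fewer cells of a type and less RNA per cell cannot be told apart in such bulk samples.

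Per kilobase of exon, the scale on which different genes can be compared, Pknox2 was the highest of the 8 genes and Meis2 the lowest. Pknox2 averaged 15.0 ± 1.46 CPM per kilobase over the 12 libraries (SD), 102-fold the mean level of Meis2. Next came Meis3 with 6.22 ± 2.23 and Pknox1 with 3.17 ± 0.477 CPM per kilobase. Pbx4 and Pbx2 stood at the same mean level, 2.46 ± 0.967 and 2.46 ± 0.397 CPM per kilobase. Meis1 followed with 0.887 ± 0.159, Pbx3 with 0.761 ± 0.105 and Meis2 with 0.146 ± 0.0345 CPM per kilobase.

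The order has 3 steps at which the ranges of neighbours over the 12 libraries did not overlap: Pknox2 above Meis3, Pbx2 above Meis1, and Pbx3 above Meis2. The other neighbours overlapped. Meis3 was above Pknox1 in 10 of 12 libraries, Pknox1 above Pbx4 in 9, Pbx4 above Pbx2 in 7 and Meis1 above Pbx3 in 9. The equal means of Pbx4 and Pbx2 include 2 libraries with very low Pbx4 (female L6S1 B and C), and over the other 10 the means were 2.84 ± 0.438 and 2.44 ± 0.327 CPM per kilobase, with Pbx4 higher in 7. Per kilobase of the longest annotated transcript, a length chosen after seeing the data, Pbx3 (1.63 ± 0.225) stood above Meis1 (1.24 ± 0.222 CPM per kilobase), and Pbx4 (3.50 ± 1.37) above Pbx2 (2.91 ± 0.471 CPM per kilobase), so the order depends on the length used.

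**Figure D1:**
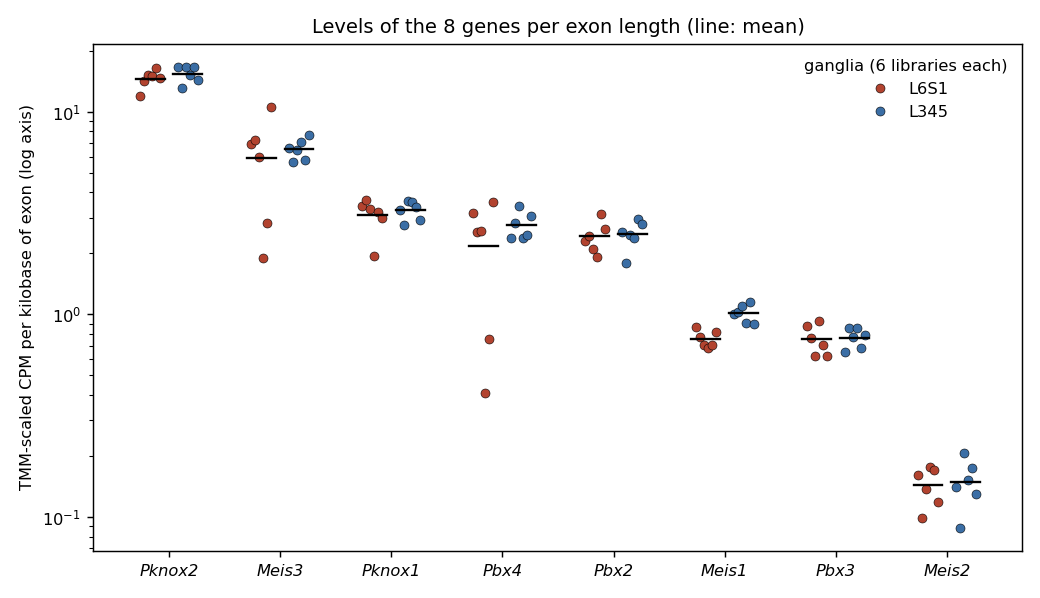
Level of each gene in CPM per kilobase of exon (log axis), with genes from highest to lowest mean, 6 L6S1 libraries at the left and 6 L345 libraries at the right of each gene, and a line at each mean. Pknox2 stands at the top and Meis2 at the bottom at both levels, and 2 L6S1 libraries lie far below the rest for Meis3 and Pbx4.

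No member of the 8 was called between spinal levels. An edgeR quasi-likelihood fit across 15281 genes, with Benjamini-Hochberg adjustment over all of them and a threshold of 0.05, called 2.33% of genes at L6S1 against L345 (1.45% higher and 0.877% lower), and 0 of the 8 members, all of which passed the filter on low counts and were tested. At an unadjusted p under 0.05 there was 1 of 8 members (Meis1), beside 4060 of the 15281 genes tested. DESeq2 and limma-voom each called that 1 member, among 1518 and 3268 genes called. All 8 estimates were below 0, from -0.45 to -0.03 on the log2 scale with a median of -0.08, against a median of -0.06 over all genes tested, whose quartiles were -0.31 and 0.23.

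Among the Pbx genes, Pbx2 and Pbx3 had like levels in both kinds of ganglia. Pbx2 (ENSMUSG00000034673, chr17:34591266-34597400, plus strand, GRCm38.p2), a broadly used Pbx gene, had 6.95, 8.66 and 11.4 CPM (lowest, median and highest) in L6S1 and 6.54, 9.13 and 10.7 CPM in L345 libraries. The groups overlapped over nearly their whole range, with a log2 fold change of -0.03 ± 0.16 (SE; 95% interval -0.37 to 0.31; edgeR adjusted p = 0.911). Pbx2 has 227 exon bases, 6.24% of its exon length, in common with Gpsm3, a gene on the same strand. How reads there were counted is uncertain. Pbx3 (ENSMUSG00000038718, chr2:34171457-34373142, minus strand) encodes a Pbx protein used in the developing nervous system. It had 3.80, 4.48 and 5.69 CPM in L6S1 and 3.96, 4.76 and 5.25 CPM in L345 libraries, which overlapped as well (log2 fold change -0.04 ± 0.16, 95% interval -0.37 to 0.30, edgeR adjusted p = 0.892). For both genes the interval leaves out a doubling or halving between levels.

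Pbx4 (ENSMUSG00000031860, chr8:69832491-69872292, plus strand), the member of the Pbx family best known from the mouse testis, differed among the female L6S1 pools. It had 7.02, 0.913 and 1.68 CPM in female L6S1 A, B and C and 5.68, 5.71 and 7.90 CPM in male L6S1 A, B and C, against 5.29, 5.47 and 6.79 CPM in female and 5.28, 6.24 and 7.60 CPM in male L345 libraries. Libraries B and C of female L6S1 were below the other 10, which spanned 5.28 to 7.90 CPM, while female L6S1 A was among the highest. The log2 fold change was -0.45 ± 0.35 (95% interval -1.21 to 0.31, edgeR adjusted p = 0.420). It was 0.13 without female L6S1 B and C (edgeR adjusted p = 0.780) and -1.08 without female L6S1 A (edgeR adjusted p = 0.00253), so the direction and the call both turned on these pools. Within the 8 libraries of the first title form, which hold neither B nor C, it was 0.10 (edgeR adjusted p = 0.793). The fit without female L6S1 A called 4031 genes in the level contrast, against 356 with all 12 libraries. Leaving out B and C was chosen after their low values were seen, and by itself raises the L6S1 estimate.

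Among the Meis genes, Meis1 came closest to the threshold. Meis1 (ENSMUSG00000020160, chr11:18879817-19018985, minus strand) encodes a Pbx partner needed in mice for the development of blood and of some sensory neurons. It had 9.09, 7.21 and 7.42 CPM in female and 8.10, 7.45 and 8.61 CPM in male L6S1 libraries, against 9.60, 12.2 and 9.39 CPM in female and 10.6, 10.9 and 11.6 CPM in male L345 libraries. Each of the 6 L6S1 libraries was below each of the 6 L345 libraries, a separation in that direction that 1.22% of all genes tested had. Means were 7.98 ± 0.75 CPM at L6S1 and 10.7 ± 1.08 CPM at L345 (SD, n = 6 each). The log2 fold change of -0.42 ± 0.13 (95% interval -0.71 to -0.14) had an unadjusted p of 0.00688, which ranked 1206 among the 15281 genes, and an edgeR adjusted p of 0.0871.

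The estimate for Meis1 kept its sign in all 22 alternative fits, while the call depended on the fit. It was called in 4 of them, among them DESeq2 (-0.40, adjusted p = 0.0455), limma-voom with sample quality weights (-0.44, adjusted p = 0.0423), and the fit without female L6S1 A (-0.48, edgeR adjusted p = 0.0186). These named fits called 1518, 3268 and 4031 of all genes, in that order. With any other single library left out Meis1 was not called (edgeR adjusted p up to 0.220). The estimate was -0.18 with offsets for the GC content and length of transcripts (edgeR adjusted p = 0.479), -0.39 in the 8 libraries of the first title form (edgeR adjusted p = 0.163) and -0.33 without female L6S1 B and C (edgeR adjusted p = 0.344). The mean log2 level of the top against the bottom decile of transcript length, relative to the mean of all libraries, was -0.68 to 0.04 in L6S1 and -0.18 to 0.48 in L345 libraries. These ranges overlap and the difference was not tested. The lowest L345 value is that of female L345 D, and the 4 libraries of the second title form, 3 of them L6S1, were all below 0 (-0.68 to -0.18). The antisense gene Gm16140, which has 896 exon bases in common with Meis1, was at 0 counts in all libraries.

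Meis2 (ENSMUSG00000027210, chr2:115863064-116065839, minus strand), which in mice is needed for neural crest derivatives and touch neurons, was low throughout, with 21 to 62 counts per library. It had 1.19, 1.802 and 2.13 CPM in L6S1 and 1.07, 1.77 and 2.49 CPM in L345 libraries. The groups overlapped (log2 fold change -0.08 ± 0.22, 95% interval -0.56 to 0.40, edgeR adjusted p = 0.841). Female L6S1 libraries were close together, between 1.95 and 2.13 CPM, and male L6S1 libraries lay between 1.19 and 1.65 CPM.

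Meis3 (ENSMUSG00000041420, chr7:16175090-16186504, plus strand), known from hindbrain patterning in frog and fish embryos, was the highest of the 3 Meis genes per kilobase and the one with the widest spread. It had 21.9, 6.00 and 8.92 CPM in female L6S1 A, B and C and 22.9, 19.0 and 33.6 CPM in male L6S1 A, B and C, against 22.5, 18.3 and 24.4 CPM in female and 20.95, 17.9 and 20.5 CPM in male L345 libraries. As for Pbx4, female L6S1 B and C were below the other 10 libraries, and male L6S1 C had the highest value. The log2 fold change was -0.24 ± 0.26 (95% interval -0.79 to 0.31, edgeR adjusted p = 0.554). It was 0.17 without female L6S1 B and C (edgeR adjusted p = 0.668), -0.60 without female L6S1 A (edgeR adjusted p = 0.0229) and 0.08 in the first title form alone (edgeR adjusted p = 0.778). The fit without A called 4031 of all genes, and B and C were left out after their low values were seen.

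The Pknox genes gave estimates near 0, with intervals that included 0. Pknox1 (ENSMUSG00000006705, chr17:31564749-31607684, plus strand), also called Prep1, encodes a Pbx partner needed in mouse embryos. It had 13.4, 22.4 and 25.1 CPM in L6S1 and 19.1, 22.9 and 25.01 CPM in L345 libraries, with female L6S1 B as the lowest of all 12. Its log2 fold change was -0.09 ± 0.15 (95% interval -0.41 to 0.24, edgeR adjusted p = 0.735). Pknox2 (ENSMUSG00000035934, chr9:36890982-37147322, minus strand), or Prep2, is the paralog with the more tissue-restricted use.

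Pknox2 had 83.2, 105 and 114 CPM in female and 98.6, 105 and 101 CPM in male L6S1 libraries, against 106, 115 and 99.5 CPM in female and 115, 90.4 and 115 CPM in male L345 libraries. Its groups overlapped, and its coefficient of variation over the 12 libraries, 9.78%, was the lowest of the 8 genes, against 35.8% for Meis3 and 39.2% for Pbx4. The log2 fold change of -0.08 ± 0.11 (95% interval -0.32 to 0.17, edgeR adjusted p = 0.669) had the narrowest interval of the 8. Counting error differs between these genes, since Pknox2 had 1363 to 2939 counts per library and Pbx4 21 to 210.

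**Figure D2:**
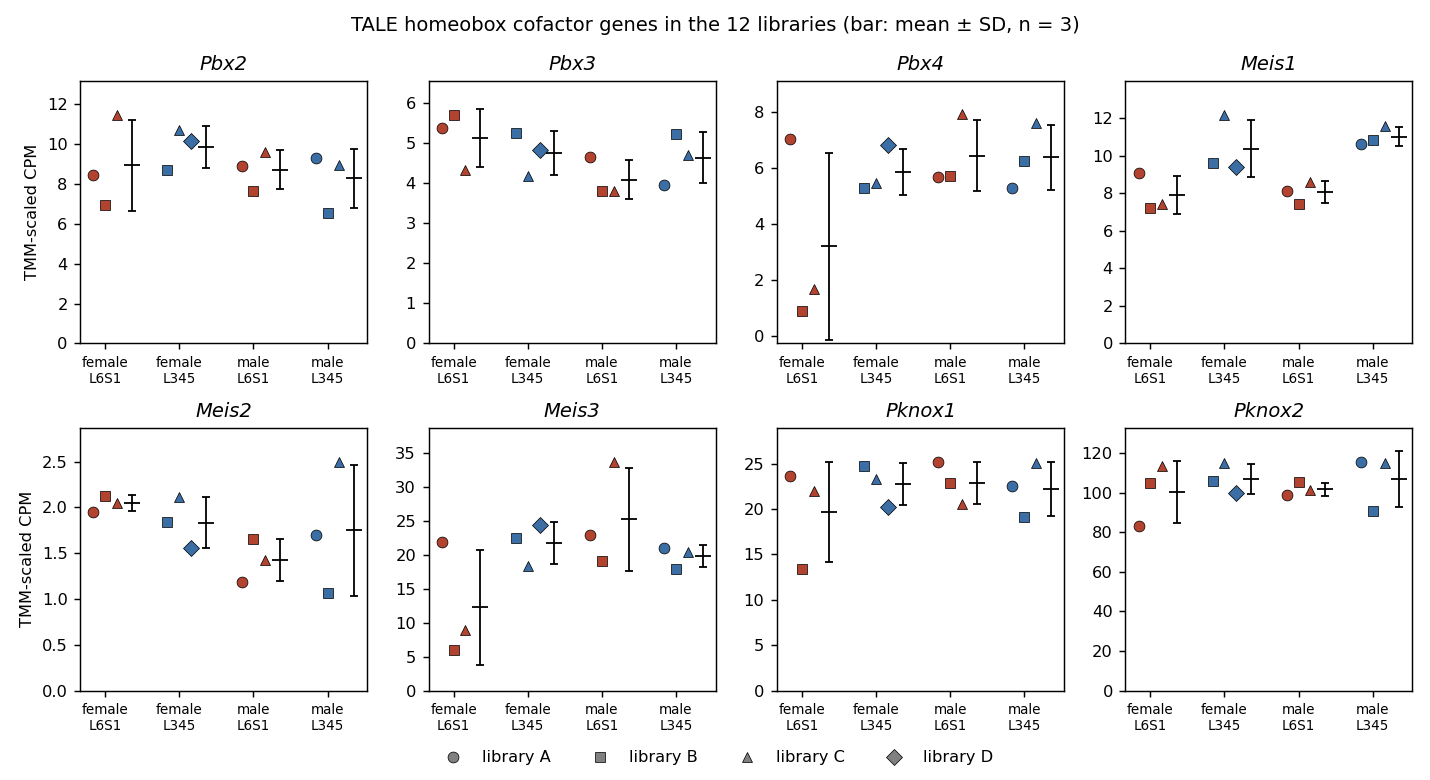
TMM-scaled CPM of each gene in each library, with 3 libraries per group as separate symbols (letters as in the labels), and the mean and SD of each group as a bar beside them. Meis1 is lower in each L6S1 library than in each L345 library, whereas Pbx4 and Meis3 are low in female L6S1 B (square) and C (triangle) alone.

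Split by sex, 0 of 8 members were called in females or in males. In females, where 0.36% of all genes tested were called, the log2 fold changes of L6S1 over L345 ran from -0.91 to 0.16 with 6 of 8 below 0. An unadjusted p under 0.05 was found for 1 member (Meis3) and for 3674 of all genes tested. Pbx4 stood at -0.91 ± 0.51 (edgeR adjusted p = 0.281), Meis3 at -0.83 ± 0.37 (edgeR adjusted p = 0.190) and Meis1 at -0.39 ± 0.19 (edgeR adjusted p = 0.217). Without female L6S1 A, where 2 libraries are left in that group, Pbx4 was at -2.17 (edgeR adjusted p = 0.000426) and Meis3 at -1.54 (edgeR adjusted p = 0.00138), among 3843 genes called. In males, where 0.222% of genes were called, the estimates ran from -0.45 to 0.35 with 4 of 8 below 0. Meis1 was at -0.45 ± 0.19 (edgeR adjusted p = 0.551), the 1 member with an unadjusted p under 0.05, and Meis3 at 0.35 ± 0.36 (edgeR adjusted p = 0.764). Such an unadjusted p was found for 1349 of all genes tested in males.

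The estimate of Meis1 was -0.39 in females and -0.45 in males. The difference between them was 0.06 ± 0.27 (95% interval -0.52 to 0.63, edgeR adjusted p = 0.987), an interval that includes differences larger than either estimate. Without female L6S1 B and C the estimates were -0.20 in females and -0.46 in males. For Meis3 the interaction (the female minus the male log2 fold change of L6S1 over L345) was -1.18 ± 0.52 (unadjusted p = 0.0378, edgeR adjusted p = 0.871), and for Pbx4 -0.92 ± 0.71 (edgeR adjusted p = 0.871). The interaction was called for 0 of 8 members and for 0% of all genes tested. Of all genes tested, 714 had an unadjusted p under 0.05, and DESeq2 and limma-voom called 2 each. Without female L6S1 A the interaction was -1.90 for Meis3 (edgeR adjusted p = 0.0046) and -2.19 for Pbx4 (edgeR adjusted p = 0.00459), among 817 genes called.

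**Figure D3:**
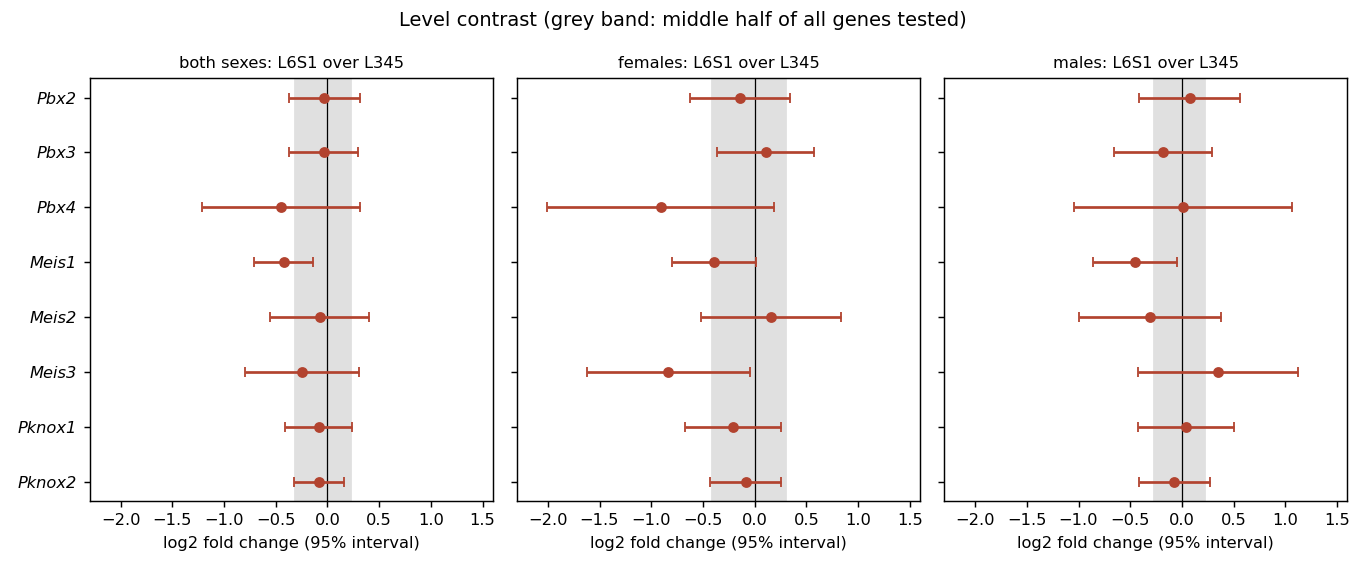
Log2 fold change of L6S1 over L345 with its 95% interval for each gene, in both sexes together, in females and in males, over a grey band between the quartiles of all genes tested. Only Meis1 has an interval below 0 in both sexes together, and Pbx4 and Meis3 have the widest intervals.

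Between the sexes, 0 of 8 members were called, by edgeR, DESeq2 or limma-voom, where edgeR called 0.0589% of all genes tested. No member had an unadjusted p under 0.05, against 911 of all genes tested. Pbx4 averaged 4.53 ± 2.61 CPM in female and 6.40 ± 1.09 CPM in male libraries (SD, n = 6 each), which gave -0.59 ± 0.35 as the log2 fold change (edgeR adjusted p = 0.772). Meis3 averaged 17.01 ± 7.71 CPM in female and 22.5 ± 5.70 CPM in male libraries, or -0.46 ± 0.26 on the log2 scale (edgeR adjusted p = 0.764). The other 6 genes had estimates of female over male between -0.09 and 0.29. Both larger values include female L6S1 B and C. Without that pair the female over male log2 value was 0.0041 for Pbx4 and -0.028 for Meis3. The pair was picked for its low Pbx4 and Meis3, so a rise of these values follows from that choice.

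The low values of Pbx4 and Meis3 thus fell in the same pair of libraries. Meis1 was also lower in female L6S1 B and C than in each of the other 10, though by little, at 7.21 and 7.42 CPM against 7.45 CPM or more, while 5 of the 8 genes (Meis2, Pbx2, Pbx3, Pknox1 and Pknox2) had at least 1 of the pair within the range of the others. As a share of the summed level per kilobase of all 8 genes, the Pknox genes made up 73.9 and 70.2% in that order of libraries (B, C), and 48.9 to 60.3% in the other libraries. The Meis genes made up 12.0 and 13.2% in that pair. Across the 10 other libraries Pbx4 and Meis3 had a Pearson r of 0.54 (permutation p = 0.10) and a Spearman rho of 0.27 (permutation p = 0.450). Without male L6S1 C and male L345 B, the libraries farthest from the median of Meis3, r was 0.24. Among all 28 pairs of the 8 genes over those 10 libraries r ran from -0.58 to 0.57, and the lowest Benjamini-Hochberg adjusted p was 0.767.

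Both libraries of the pair also lay outside the range of the other 10 in the marker sums of both glial types. The summed level of 5 satellite glia markers was 781 and 799 CPM in female L6S1 B and C, against 1239 to 1832 CPM in the other 10 libraries, and that of 5 Schwann cell markers 3868 and 3674 CPM, against 2434 to 2964 CPM. The lower satellite glia sum is carried by Apoe, at 224 and 315 CPM in the pair against 885 to 1476 CPM in the others, while Fabp7 was higher in the pair (310 and 298 CPM, against 144 to 201 CPM) and Glul and Kcnj10 had at least 1 of the pair within the range of the others. The Schwann cell sum is mostly Pmp22, at 3768 and 3479 CPM in the pair against 2269 to 2830 CPM, and no other Schwann cell marker was higher in both. The sensory neuron marker Isl1 was below the other 10 libraries in both, at 252 and 221 CPM against 257 to 314 CPM. Each other sensory neuron marker had at least 1 of the pair within the range of the others. Acta2, a marker of pericytes or smooth muscle, was above the others in both. In the sums and decile differences that follow, the libraries B and C were unlike each other. Sensory neuron markers summed to 4085 CPM in B, below the 4520 to 5415 CPM of the other 10, and to 5055 CPM in C, within that range. Immune markers summed to 11.3 CPM in B and 144 CPM in C, against at most 13.8 CPM in the others, and endothelial markers to 1.11 and 7.38 CPM, against at most 2.99 CPM. The difference between the deciles of transcript length was -0.30 in B, within the range of the others (-0.31 to 0.48), and -0.68 in C, the lowest of the 12. The same difference for GC content was -1.03 in B, below the others (-0.47 to 0.60), and 0.42 in C, within their range. The genotype field lists only the Scn10a Cre allele for exactly this pair. Male L6S1 C and female L345 D, which have the same form of title but list only RetFloxedEGFP, were not low in Pbx4 or Meis3. The part of these measures and of the genotype entry in the low values was not tested.

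**Figure D4:**
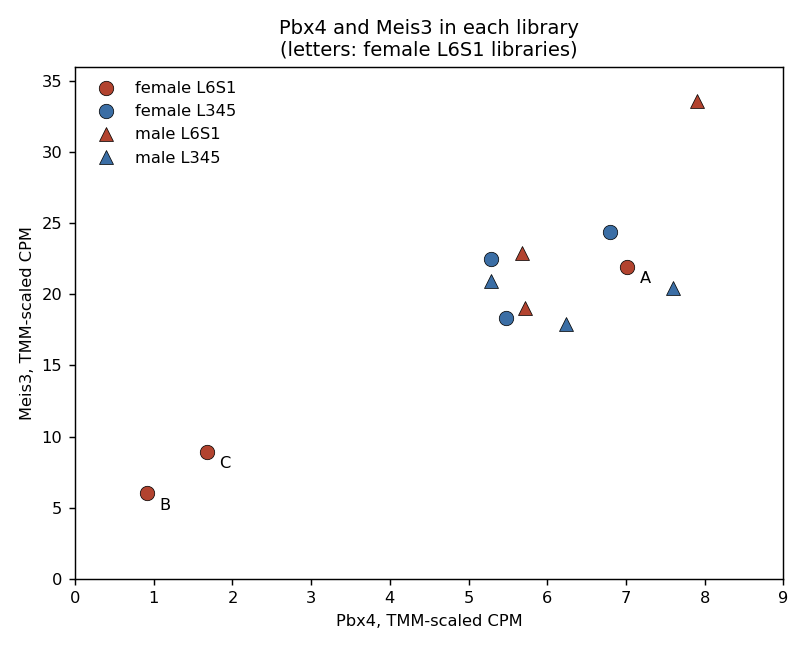
Pbx4 (x axis) against Meis3 (y axis), both in TMM-scaled CPM, for each of the 12 libraries, with female libraries as circles, male libraries as triangles and letters beside the female L6S1 libraries. Female L6S1 B and C lie near the lower left corner, apart from the other 10 libraries, whose Pbx4 values span 5.28 to 7.90 CPM and Meis3 values 17.9 to 33.6 CPM.

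The genes whose pattern over the 12 libraries was most like that of a member were ranked by Pearson's r of log2 levels among the 11629 to 11630 genes with a symbol and a mean of at least 2 CPM. They are a description, since libraries share depth and composition. Meis3 ran closest to Sh3gl1 (0.99) and Dnajb11 (0.99), and Pbx4 to Fech (0.99) and BC029722 (0.99), values to which the low pair of libraries contributes. Meis1 ran closest to Uck2 (0.96) and Atp1b1 (0.94), Pknox1 to Tnfrsf1b (0.95) and Limk2 (0.94), and Pknox2 to Tagln2 (0.94) and Slc36a1 (0.92). For Pbx2 these were Angel1 (0.94) and Pla2g6 (0.93), for Meis2 Numb (0.91) and Slc35e1 (0.89), and for Pbx3 Cmc1 (0.84) and Trim24 (0.79).

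The other lists of the pathway were read beside the 8 genes at the same threshold. Of 9 other TALE homeobox genes, 3 passed the filter and 1 was called. Irx6, an Iroquois gene, had 2.63 ± 0.502 CPM in L6S1 and 1.33 ± 0.17 CPM in L345 libraries (SD, n = 6 each; log2 fold change 0.96 ± 0.18, edgeR adjusted p = 0.0183) and was higher in 6 of 6 L6S1 libraries than the L345 mean of its sex. The genes of 2 proteins known to bind PBX or PREP proteins, Pbxip1 and Mybbp1a, were both tested and not called. Of 39 Hox genes, 27 were tested, of which 5 rose at L6S1, 8 fell and 14 were not called.

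The Hox genes that rose had log2 fold changes of 1.03 (Hoxc10) to 3.85 (Hoxc11), and those that fell reached -3.06 (Hoxb7). The median over the 27 Hox genes was -0.57, against -0.08 over the 8 cofactors and -0.06 over all genes. The largest estimate of a cofactor in size, -0.45 for Pbx4, is smaller than that of each of the 13 Hox genes called.

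**Figure D5:**
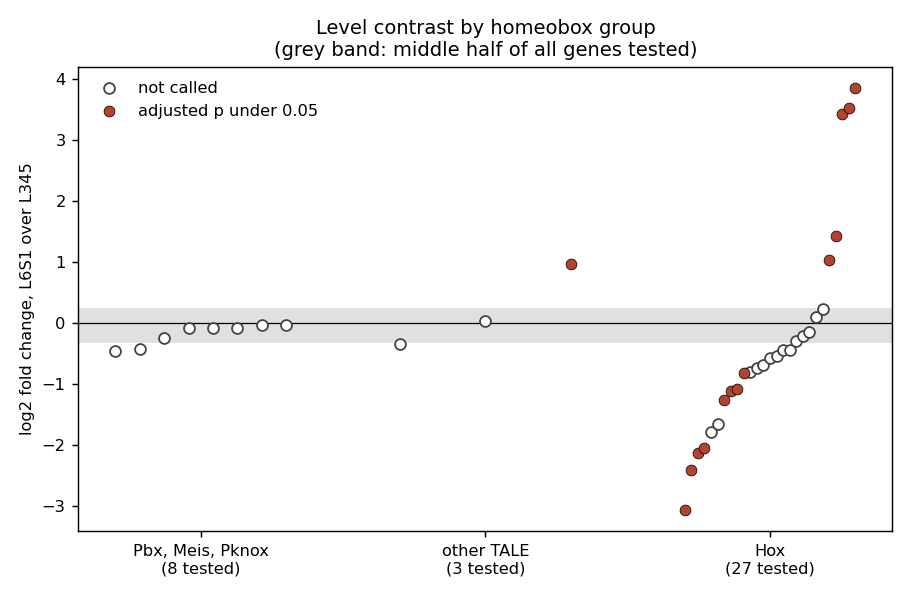
Log2 fold change of L6S1 over L345 for the 8 cofactor genes, 3 other TALE homeobox genes and 27 Hox genes that were tested, with filled points for genes called at an adjusted p under 0.05 and a grey band between the quartiles of all genes tested. The 8 cofactors lie between -0.45 and -0.03, while called Hox genes reach -3.06 and 3.85.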

How the data were processed

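Read counts per gene were deposited by the authors for each of the 12 libraries, beside CPM and RPKM values. RNA was copied and amplified with a low-input SMARTer kit, per the labels' protocols. Per the submitters' processing notes, alignment used Subread, counting used featureCounts 1.4.5 and the build was GRCm38.p2. No source used here gives the annotation release or strand setting, which leaves reads of overlapping genes uncertain. The deposited CPM and RPKM equal the values recomputed from the deposited counts, and only the counts were tested. Symbols for 40340 of 41388 genes (97.5%) and transcripts came from GENCODE M21, and gene coordinates from the deposited tables. Total counts set the precision at low levels: 3 counts are 0.112 to 0.185 CPM. Reads had no molecular identifiers.

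The test was edgeR's robust quasi-likelihood F-test (version 4.0.16, R 4.3.3; filterByExpr by group, TMM, 4 group means, 8 residual degrees of freedom, 15281 genes, Benjamini-Hochberg adjustment over all of them). The biological coefficient of variation common to all genes was 0.239. The contrasts were L6S1 minus L345 with both sexes weighted equally, the same within females and within males, female minus male, and the interaction. The code was tested on simulated counts. Alternatives were RLE scaling, DESeq2 1.42.0, limma-voom 3.58.1 with sample quality weights, other filters (none, or 1 CPM or more in 6 libraries or more), a term for the form of the title, the first title form alone, a replicate block, offsets for GC content and length (15193 genes, spline with 4 df), leaving out female L6S1 B and C, and leaving out each library in turn. Leaving out female L6S1 B and C was decided after their low Pbx4 and Meis3 values were seen. Correlations used 100000 permutations and log2 levels with a pseudocount of 0.5. The ranking of like genes used a prior count of 2. Levels per kilobase use the gene length in the deposited tables. The members and lists were chosen with earlier results of these data known. All 8 members are described; of the other lists, at most 4 called genes per list and direction could be named, by size of the log2 fold change, and for each member the 2 genes with the most similar pattern.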

Additional observations from a re-analysis of the deposited data

Results flagged for a closer look

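Meis2 at L6S1 lay on opposite sides of the L345 mean in the sexes. Each of the 3 female L6S1 libraries (1.95, 2.13 and 2.05 CPM) was above the female L345 mean of 1.84 CPM, and each of the 3 male L6S1 libraries (1.19, 1.65 and 1.43 CPM) was below the male L345 mean of 1.75 CPM. The ranges overlapped. Male L6S1 values fell within those of male L345 (1.07 to 2.49 CPM), and only female L6S1 B was above those of female L345 (1.56 to 2.11 CPM). How many of all genes have such a pattern was not counted. The difference between the log2 fold changes of the sexes, female minus male, was 0.468 ± 0.45 (SE), and its test did not pass (edgeR adjusted p = 0.897). Among the 16 groups of 6 libraries (8 genes at 2 levels), no single library stood apart by Dixon's criterion. That criterion looks for 1 library apart from the rest of its group and so says nothing of a pair low together, as female L6S1 B and C were for Pbx4 and Meis3.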

How the results depend on the processing

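Counts of calls moved with the method. Of all genes, the level contrast called 356, against 1518 with DESeq2, 3268 with limma-voom, 841 with no filter, 125 with a term for the form of the title, 611 with GC and length offsets, 137 without female L6S1 B and C, and 80 to 4031 with 1 library left out. In females 55 genes were called, against 750 with DESeq2, 256 with no filter, 90 with the offsets, 24 without female L6S1 B and C, and 17 to 3843 with 1 library left out. In males 34 were called, against 109 with DESeq2, 1864 with limma-voom, 78 with no filter, 197 in the first title form alone, 66 with the offsets, 133 without female L6S1 B and C, and 9 to 60 with 1 library left out. For sex, 9 were called, against 31 with DESeq2, 24 with no filter, and 7 to 991 with 1 library left out. The interaction called 0, against 2 with DESeq2, 2 with limma-voom, 3 with no filter, and 0 to 817 with 1 library left out. The highest of these counts of all but males came without female L6S1 A. Of the 8 cofactors, the level contrast called 0, against 1 with DESeq2, 1 with limma-voom and 0 to 3 with 1 library left out; in females, for sex and for the interaction 0 to 2 were called with 1 library left out. The cause was not tested.

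No label says that a replicate letter marks shared animals. Of 15 pairs of libraries with the same letter, 7 had deviations that correlated above 0.1 (range -0.20 to 0.31). Libraries with different letters were not compared, so these values cannot settle whether the letters mark shared animals. For want of such a label the letters were not used as pairs. With the letter as a replicate block the level contrast called 1985 genes and 1 cofactor, Meis1 (-0.47, adjusted p = 0.0499), and 2 estimates changed sign: Pbx4 in males to -0.0036 and the interaction of Meis1 to -0.029.

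Of 880 alternative estimates for the 8 genes, 77 had the other sign, and none of those passed the test. With RLE scaling these were the sex (0.0079) and interaction (0.014) values of Pknox2, and with DESeq2 the same values (0.0080 and 0.014). With limma-voom they were Pbx3 at level 0.054, Pbx2 in males -0.026, and the interaction of Meis1 (-0.0067) and Pknox2 (0.022). With the title term they were Pknox1 at level 0.0084 and for sex 0.0019. With the offsets they were Meis2 at level 0.063, Pbx2 and Pbx4 in males -0.051 and -0.21, and the interaction of Pbx2 (0.0034), Meis1 (-0.10) and Pknox2 (0.092). In the first title form alone the level values were 0.017 for Pbx3, 0.10 for Pbx4, 0.081 for Meis3 and 0.030 for Pknox1. The male value of Pbx4 there was -0.16, the female values were 0.35 for Pbx4, -0.045 for Meis2 and 0.072 for Meis3, and the interaction of Pbx4 was 0.51. Its sex values were 0.026 for Pbx4, 0.10 for Meis1, 0.052 for Meis3 and 0.044 for Pknox1. Without female L6S1 B and C the level values were 0.13 for Pbx4, 0.17 for Meis3 and 0.040 for Pknox1, and the female values 0.25 for Pbx4, 0.0031 for Meis3 and 0.047 for Pknox1. The sex values there were 0.0041 for Pbx4, 0.049 for Meis1 and 0.046 for Pknox1, and the interaction 0.25 for Pbx4 and 0.014 for Pknox1. With 1 library left out the level values ranged from -0.13 to 0.048 for Pbx2, -0.088 to 0.032 for Pbx3, -0.20 to 0.10 for Meis2 and -0.16 to 0.024 for Pknox1. Male values ranged from -0.066 to 0.17 for Pbx2, -0.16 to 0.16 for Pbx4, -0.56 to 0.042 for Meis2 and -0.060 to 0.14 for Pknox1. Female values ranged from -0.34 to 0.023 for Pbx2, -0.36 to 0.011 for Pknox1 and -0.16 to 0.028 for Pknox2. Sex values ranged from -0.17 to 0.020 for Pknox1 and -0.064 to 0.049 for Pknox2, and interactions from -0.057 to 0.18 for Meis1 and -0.085 to 0.10 for Pknox2. Mean levels per group moved by less than 1 SD with RLE scaling or with CPM on the library's own total. Depth limits Meis2 and the low Pbx4 values, which rest on as few as 21 counts.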
